A study of Mus musculus with 2 samples.

Results

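The replication-dependent histone genes were followed on 2 Affymetrix Mouse Gene 1.0 ST arrays of mouse embryonic stem (ES) cells. Members were all probe sets with at least 1 platform gene symbol of the clustered histone families, written Hist1h to Hist4h in the older naming and H1f, H2ac, H2bc, H3c and H4c with a number in the current one. The rule found 56 probe sets among 23410 with a gene symbol and 35557 on the array. Of the 56, 30 carried 1 symbol and 26 carried several, from 2 to 20 symbols. Together they named 66 genes by the rule, of 21335 with a symbol on the array. Of these 66, 30 had a probe set of their own and 36 were read by shared probe sets only.

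The induced array held RNA of cells given doxycycline for 3 days to express CTCFL-V5-GFP and then sorted for GFP. CTCFL is the relative of the DNA-binding protein CTCF that is made in male germ cells. The non-induced array held RNA of the same transgenic line, neither treated with doxycycline nor sorted. Both carried a ROSA26-driven reverse transactivator and a TRE-mCTCFL-V5-GFP construct, were selected with G418 and were grown with LIF on gelatin. The number of clones behind the arrays is not given in the sources used here. There was 1 array per condition, so no test was possible, and the effects of doxycycline, sorting and CTCFL cannot be told apart. All values are log2 signals after robust multi-array averaging (RMA), and all differences are induced minus non-induced. Fewer cells expressing a gene and less RNA per cell cannot be told apart in such bulk samples.

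Histones package DNA into nucleosomes, in which H2A, H2B, H3 and H4 form the core and H1 binds the linker DNA. Most core and linker histone genes lie in clusters and are transcribed in S phase, when newly made DNA needs new histones. Their mRNAs have no introns and, in place of a poly(A) tail, end in a conserved stem-loop that is bound by SLBP. NPAT, a substrate of cyclin E and CDK2, activates these genes in a nuclear body formed at the clusters. The replication-independent variants lie elsewhere, and their mRNAs are mostly polyadenylated. A few cluster genes encode testis variants. H2ac1 (Hist1h2aa) encodes TH2A, H2bc1 (Hist1h2ba) encodes TH2B and H1f6 (Hist1h1t) encodes H1t, the linker histone of spermatocytes.

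Promoter sequence was taken from RefSeq (GRCm38.p6), where windows of 300 bases, 250 before and 50 after the annotated start, were found for 58 of the 63 member genes in the Hist1 and Hist2 clusters, giving 59 windows. The 250 bases before the start are shown here for the testis genes, which had some of the widest differences. Also shown are H2bc3, with the lowest H2B difference after TH2B (-0.81), and H4c8, with the lowest H4 difference (-0.76). Capitals mark CCAAT (the CCAAT box), TATAAA (the TATA box), ATTTGCAT (the octamer) and TGACGTCA (the cyclic AMP response element), each searched on both strands. The first stretch, chr13:23934187-23934436 on the plus strand, lies between the divergent genes H2bc1 and H2ac1, upstream of both. The others are chr13:23695561-23695810, chr13:23746484-23746733 and chr13:23530794-23531043, all on the plus strand.
H2ac1: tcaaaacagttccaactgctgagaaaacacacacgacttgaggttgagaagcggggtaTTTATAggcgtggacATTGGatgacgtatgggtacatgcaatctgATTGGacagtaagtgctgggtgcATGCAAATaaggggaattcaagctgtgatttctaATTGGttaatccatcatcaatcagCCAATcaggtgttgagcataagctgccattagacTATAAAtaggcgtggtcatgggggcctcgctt
H1f6: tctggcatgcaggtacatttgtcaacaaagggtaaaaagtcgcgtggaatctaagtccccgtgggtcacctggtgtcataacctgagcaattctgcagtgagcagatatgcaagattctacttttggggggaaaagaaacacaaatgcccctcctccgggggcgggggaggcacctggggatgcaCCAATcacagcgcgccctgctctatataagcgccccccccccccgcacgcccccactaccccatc
H2bc3: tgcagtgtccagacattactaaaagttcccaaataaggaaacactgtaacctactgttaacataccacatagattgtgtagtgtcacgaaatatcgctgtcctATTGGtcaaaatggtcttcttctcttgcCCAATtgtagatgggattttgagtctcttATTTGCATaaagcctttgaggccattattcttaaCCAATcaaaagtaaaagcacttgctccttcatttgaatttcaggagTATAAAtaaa
H4c8: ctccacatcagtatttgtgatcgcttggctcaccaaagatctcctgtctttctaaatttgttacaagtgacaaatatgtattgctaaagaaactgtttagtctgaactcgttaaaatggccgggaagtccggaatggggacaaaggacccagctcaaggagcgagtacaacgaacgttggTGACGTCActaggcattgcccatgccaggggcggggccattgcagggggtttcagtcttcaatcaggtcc
The stretch shared by the TH2A and TH2B genes held 4 CCAAT boxes, 2 TATA boxes and 1 octamer. That of H1f6 held 1 CCAAT box, and that of the H2B gene H2bc3 held 3 CCAAT boxes, 1 TATA box and 1 octamer. That of H4c8 held 1 cyclic AMP response element and none of the other motifs. Over all H4 windows, 8 of 11 held a TATA box and 2 of 11 a cyclic AMP response element. These are matches of letters, not measured binding sites.

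Over the 59 windows, CCAAT occurred in 51 (86.4%), against 37.4% of all 32851 promoter windows. It was in every window of the H1, H2A, H2B and H3 genes and in 3 of 11 H4 windows. TATAAA occurred in 57.6% of the histone windows and in 13.6% of all windows. The octamer occurred in 22.0% and 1.74%, and among the histone windows it was found in 6 of 17 H2A and 7 of 15 H2B windows and in none of the H1, H3 and H4 windows. TGACGTCA occurred in 6.78% and 1.79%. The windows of 9 pairs of H2A and H2B genes overlapped head to head, so several matches are counted in both genes of a pair. H2bc1 and H2ac1 had 281 bases between their starts.

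Ctcfl itself had 9.44 on the induced array, against 5.99 on the non-induced one. All 12 ES cell markers on the list, such as Pou5f1 and Nanog, were at or above a floor of 6.36, the median of all values, in at least 1 array. Their median difference was -0.07, and 0.01 after removal of the trend of the difference on signal (lowess) or after a repeated quantile normalization, and -0.15 after centring of each array. The fibroblast, endoderm, trophoblast, neural and stress lists had median differences of 0.39, 0.25, 0.13, 0.13 and 0.10 over 8, 6, 5, 4 and 5 genes. The log2 of the summed linear signal of the fibroblast list was 11.2 on the induced array, against 11.1 on the non-induced one. In that list 6 of 8 genes were above 0, the widest being Col3a1 (0.53), Col1a2 (0.47), Col1a1 (0.42) and Thy1 (0.41). The 2 below 0 were Vim, with 9.71 on the induced array, against 9.96 on the non-induced one (-0.25), and Dcn (-0.28). Lum and Dcn were below the floor in both arrays. The part of such cells in the histone values was not tested.

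Histone probe sets were mostly lower in the induced array. Of the 56, 49 (87.5%; 48 after lowess or a repeated quantile normalization) had a difference below 0, against 48.8% of all 23410 probe sets with a symbol. Their median difference was -0.31, and that of all probe sets was 0.01. Of the 30 members with 1 symbol, 23 (76.7%) were below 0, with a median of -0.47. All 26 with several symbols were below 0 as deposited, but most of these repeat the same few lists of symbols and are not separate genes. The middle 50% of all probe sets lay between -0.25 and 0.26 and the middle 95% between -0.88 and 0.79, so most single members differed by no more than many other probe sets. At log2 1 or more, with the higher value at or above the floor, 4 members were lower, against a background of 1.08%, and 0 were higher, against 0.252%. At log2 0.58, without a floor, 12 members were lower, against a background of 7.81%.

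**Figure D1:**
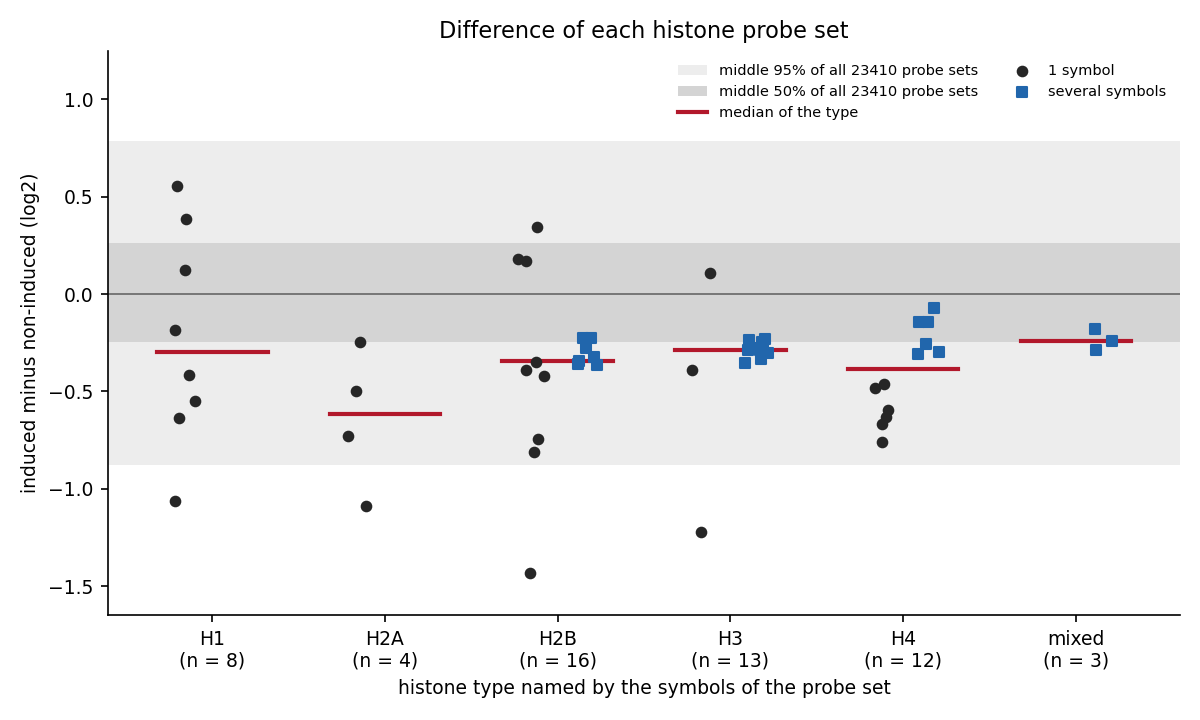
Difference of each of the 56 histone probe sets (y axis, induced minus non-induced, log2) by the histone type its symbols name (x axis). Dots are probe sets with 1 symbol and squares those with several, red lines are type medians, and the bands give the middle 50% and 95% of all 23410 probe sets with a symbol. As deposited, all 26 squares lie below 0, between -0.37 and -0.07 (the highest is above 0 after lowess or a repeated quantile normalization), and the dots spread from -1.43 to 0.55.

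The 4 members past log2 1 were TH2B, TH2A, H1t and an H3 gene. H2bc1 (TH2B) had 8.71 on the induced array, against 10.14 on the non-induced one, a difference of -1.43 (2.70-fold lower), at rank 86 from the lowest of the 23410 probe sets. H2ac1 (TH2A), its divergent neighbour, had 11.10 on the induced array, against 12.19 on the non-induced one, a difference of -1.09 (2.13-fold lower). H1f6 (H1t) had 8.23 on the induced array, against 9.29 on the non-induced one, a difference of -1.06 (2.09-fold lower). The median of these 3 testis histone genes was -1.09, and that of the other 24 cluster probe sets with 1 symbol was -0.47, with 20 of them below 0. A testis group was not among the planned groupings. All 3 were already past log2 1, so their lower median adds nothing to the single values. The mean signals of H2ac1, H2bc1 and H1f6 were at the 97.2, 90.5 and 85.5 percentile of all probe sets with a symbol. Whether RNA of near-identical histone genes added to these signals was not tested. H3c15 (Hist2h3c2) had 5.42 on the induced array, against 6.64 on the non-induced one, a difference of -1.22 (2.33-fold lower). Its induced value was below the floor, and the platform annotation links that probe set to a cDNA record only. H1f6 was no longer past log2 1 after lowess (-0.96), a repeated quantile normalization (-0.94) or a constant of 32 added before log2 (-0.99), and H3c15 was not with that constant (-0.82).

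**Figure D2:**
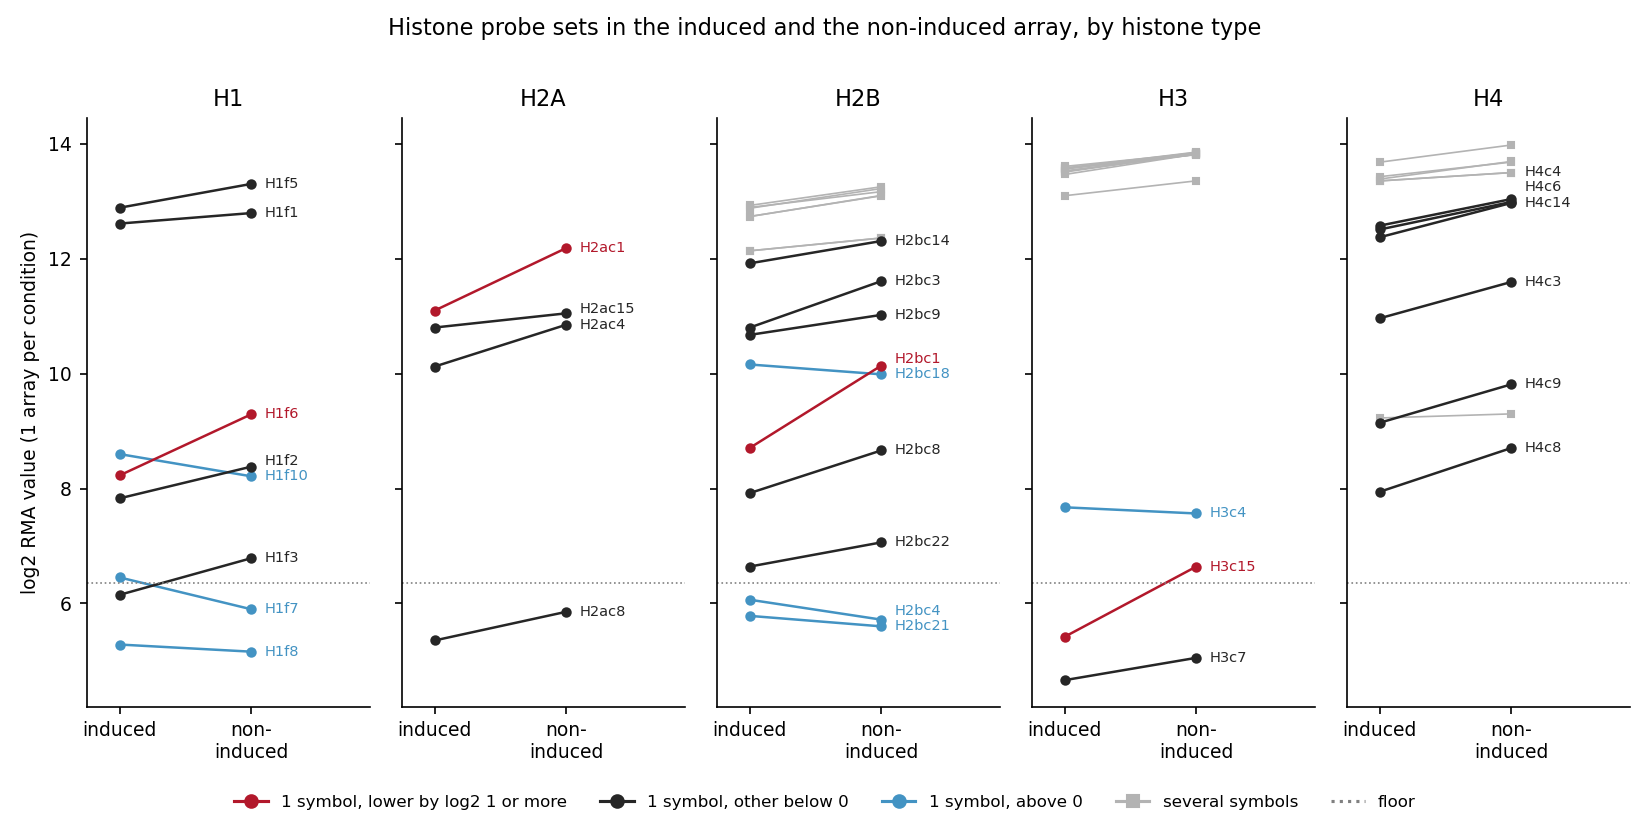
Log2 RMA values (y axis) of the histone probe sets on the 2 arrays (induced left, non-induced right), 1 line per probe set and 1 panel per histone type. Red lines are the 4 members lower by log2 1 or more, black lines other probe sets of 1 symbol below 0, blue lines those above 0, and grey lines probe sets with several symbols, while the dotted line is the floor of 6.36. As deposited, all lines of the H2A and H4 panels are lower on the induced side, and the H1 and H2B panels hold 3 blue lines each.

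The sign of the H1 differences as deposited went with where the genes lie. The 5 cluster H1 genes with a probe set of their own were all lower in the induced array. The 3 H1 genes outside the clusters were all higher, but only H1f10 of these was above the floor in both arrays. All 3 lay within the middle 95% of all probe sets. H1f3 (Hist1h1d) had 6.15 on the induced array, against 6.79 on the non-induced one (-0.64). H1f2 (Hist1h1c) had 7.83 on the induced array, against 8.38 on the non-induced one (-0.55), and its probe set too is linked to cDNA records only. Both genes encode somatic linker histones, as do H1f5 and H1f1, whose differences were narrower. H1f5 (Hist1h1b) had 12.89 on the induced array, against 13.30 on the non-induced one (-0.41). H1f1 (Hist1h1a) had 12.61 on the induced array, against 12.80 on the non-induced one (-0.18). All 4 of these somatic genes lay within the middle 95% of all probe sets, and H1f6 lay below it.

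The other 3 H1 probe sets met the rule by symbol but are replication-independent. H1f10 (H1x), a linker histone of somatic cells, had 8.60 on the induced array, against 8.21 on the non-induced one (0.39). H1f7, a spermatid linker histone, had 6.45 on the induced array, against 5.90 on the non-induced one (0.55), which was below the floor. H1f8, the oocyte linker histone, had 5.28 on the induced array, against 5.16 on the non-induced one (0.12), both below the floor. The H1f8 difference was 0.01 after lowess or a repeated quantile normalization. Without these 3, 49 of the 53 remaining members were below 0, and the median was -0.33.

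H2A genes with a probe set of their own were lower in 4 of 4 cases, with a median of -0.61. After H2ac1, H2ac4 (Hist1h2ab) had 10.12 on the induced array, against 10.85 on the non-induced one (-0.73). H2ac8 (Hist1h2ae) had 5.36 on the induced array, against 5.85 on the non-induced one (-0.50), both below the floor. H2ac15 (Hist1h2ak) had 10.80 on the induced array, against 11.05 on the non-induced one (-0.25). A further 2 probe sets named 16 H2A genes of both clusters together with H3c4, H2ax and others, with 20 and 19 symbols. They had 13.62 and 13.21 in the induced array, against 13.80 and 13.45 in the non-induced array.

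H2B had 16 probe sets, of which 13 were lower, with a median of -0.35. Below TH2B in the order of differences came H2bc3 (Hist1h2bb), with 10.80 on the induced array, against 11.61 on the non-induced one (-0.81). H2bc8 (Hist1h2bg) had 7.92 on the induced array, against 8.66 on the non-induced one (-0.74). It shares a divergent promoter with H2ac8, the only other head-to-head pair in which both genes had probe sets of their own. The differences of H2bc22, H2bc14 and H2bc9 were -0.42, -0.39 and -0.35. The 3 H2B probe sets above 0 were H2bc18, H2bc21 and H2bc4. H2bc18 (Hist2h2bb) had 10.16 on the induced array, against 9.99 on the non-induced one (0.17). H2bc21 (Hist2h2be) had 5.78 on the induced array, against 5.60 on the non-induced one (0.18), and H2bc4 (Hist1h2bc) had 6.06 on the induced array, against 5.72 on the non-induced one (0.35). The last pair lay below the floor in both arrays.

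H3 was read almost wholly by shared probes. The same 12 H3 symbols stood on 10 probe sets, whose differences ran from -0.36 to -0.23, with values of 13.10 to 13.61 in the induced array and 13.36 to 13.86 in the non-induced array. These 10 share their symbols, so their values describe a mixture of H3 mRNAs and not 10 genes. Beside H3c15, 2 H3 genes had a probe set of their own. H3c7 (Hist1h3f) had 4.66 on the induced array, against 5.05 on the non-induced one (-0.39), both below the floor. H3c4 (Hist1h3d) had 7.67 on the induced array, against 7.57 on the non-induced one (0.11), on a probe set linked to a cDNA record only.

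All 12 H4 probe sets were lower in the induced array, or 11 after lowess or a repeated quantile normalization. The 6 with a symbol of their own had a median of -0.62, and the 6 with several symbols -0.20. H4c8 (Hist1h4h) had 7.94 on the induced array, against 8.71 on the non-induced one (-0.76). H4c9 (Hist1h4i) had 9.15 on the induced array, against 9.81 on the non-induced one (-0.67). H4c3 (Hist1h4c) had 10.96 on the induced array, against 11.60 on the non-induced one (-0.63). The H4 genes of the clusters encode a nearly invariant protein that pairs with H3 in the nucleosome. The differences of H4c14, H4c6 and H4c4 were -0.60, -0.48 and -0.46. Of the shared H4 sets, 5 listed the same 11 symbols and lay between -0.31 and -0.15. The other one, which names only H4c11 and H4c17, had 9.23 on the induced array, against 9.30 on the non-induced one (-0.07).

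The shared probe sets as a whole differed by little. Of these 26, 10 named H3 genes only, 7 H2B genes (14 or 15 symbols each), 6 H4 genes only and 3 more than 1 histone type. The 7 H2B sets also carried H4bc24 (Hist1h2br in the older naming), a current symbol that did not match the rule and was left out when the type was assigned. The third set of mixed type names H2bc6 and H1f4, with 7.45 on the induced array, against 7.74 on the non-induced one (-0.29). All 26 were below 0 as deposited, with a median of -0.28, and 25 were after lowess or a repeated quantile normalization, where the set of H4c11 and H4c17 stood at 0.03 and 0.05. In 2 cases a pair of probe sets held identical values on both arrays, so the 56 members gave 54 distinct measurements. Probe sets with 1 symbol can also take up RNA of near-identical copies, and single histone genes are uncertain for that reason.

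The shared sets mostly had high signals, a range in which differences were narrow on these arrays. Of the members, 30 had a mean log2 signal of 12 or more, a level chosen after the data were seen. All 30 were below 0, with a median of -0.29. Only H1f5, H1f1, H2bc14, H4c6, H4c4 and H4c14 among them had 1 symbol. The others were shared sets, which mostly repeat the same lists of symbols, so the 30 are not 30 genes. Among all 497 probe sets at that level, members included, 47.3% were below 0. Their median was 0.03 and the middle 95% lay between -0.44 and 0.39. The 5 members below the floor in both arrays had a median of 0.12, with 2 below 0.

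**Figure D3:**
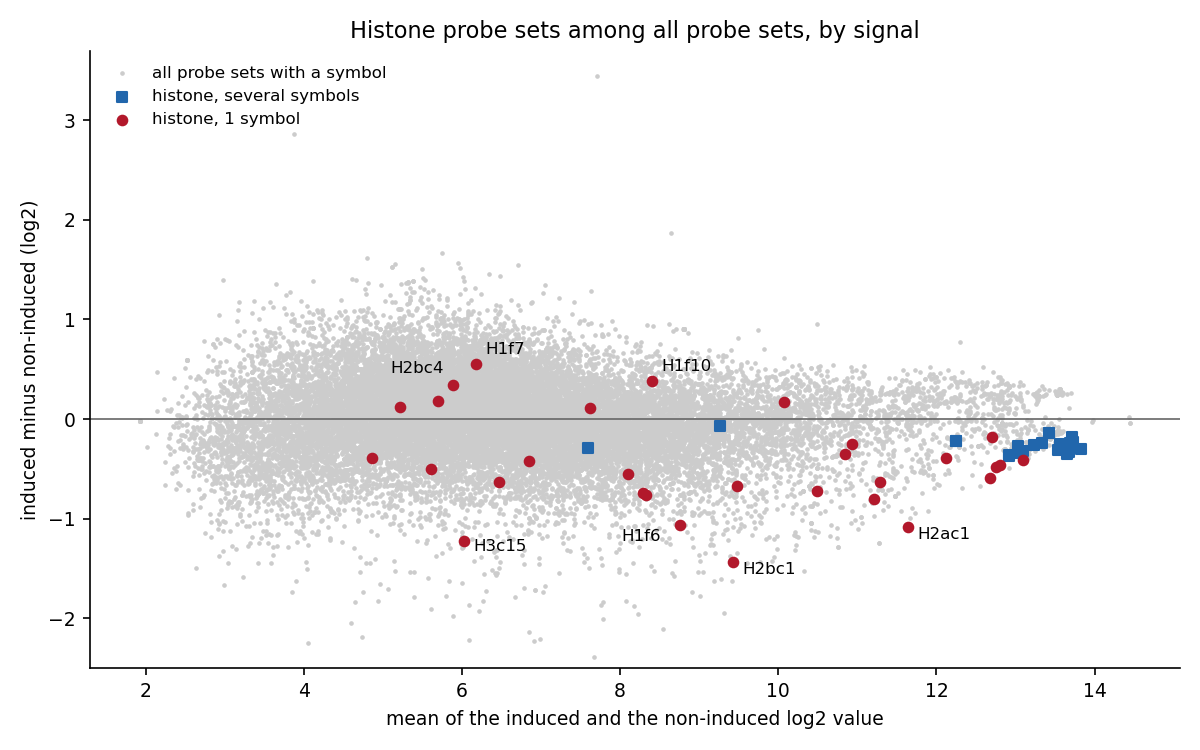
Difference (y axis, induced minus non-induced, log2) against the mean of the induced and the non-induced log2 value (x axis) for all 23410 probe sets with a symbol (grey), histone probe sets with 1 symbol (red dots) and those with several (blue squares). The 30 histone probe sets at 12 or above all lie below 0, and H2bc1, H2ac1, H1f6 and H3c15 lie lowest among the members.

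By cluster, the Hist1 probe sets had a median of -0.37 (35 of 37 below 0), or -0.50 over the 23 with 1 symbol (21 of 23). The Hist1 genes form 2 blocks in the gene order, parted by a long run of vomeronasal receptor genes. The block from H2bc13 to H2bc11, with 22 histone genes of the rule and H4bc24, whose symbol is outside it, had 5 probe sets of 1 symbol, all below 0, with a median of -0.41. The block of 31 histone genes from H4c8 to H2ac1 had 18, of which 16 were below 0, with a median of -0.59. TH2A and TH2B lie at the end of that block, and H1t lies within it, between H2bc4 (0.35) and H4c3 (-0.63). In Hist2, 4 genes had probe sets of their own, with a median of -0.21, or -0.60 without H2bc21, which was below the floor. H3c15 and H4c14 were lower there, and H2bc21 and H2bc18 were higher. The 12 sets that name genes of both clusters had a median of -0.27.

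Non-histone genes in the Hist1 region were mostly vomeronasal receptor genes with values below the floor. Of 50 such genes inside the cluster 41 had a probe set, and 25 of these were below 0, with a median of -0.14. Only Prss16 (0.43), Zfp322a (-0.49) and Abt1 (-0.16) were at or above the floor, and none of the 41 was past log2 1 with that floor. Of the 5 genes on each side of Hist1, 7 had a probe set, and 5 of these were below 0, with a median of -0.16. Only 1 of the 7, at -0.03, was at or above the floor. Of the 5 genes on each side of Hist2, 5 of 10 were below 0, with a median of -0.03. The 4 of them at or above the floor were Bola1 (-0.30), Sf3b4 (-0.34), Txnip (0.43) and Polr3gl (-0.40), with a median of -0.32.

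**Figure D4:**
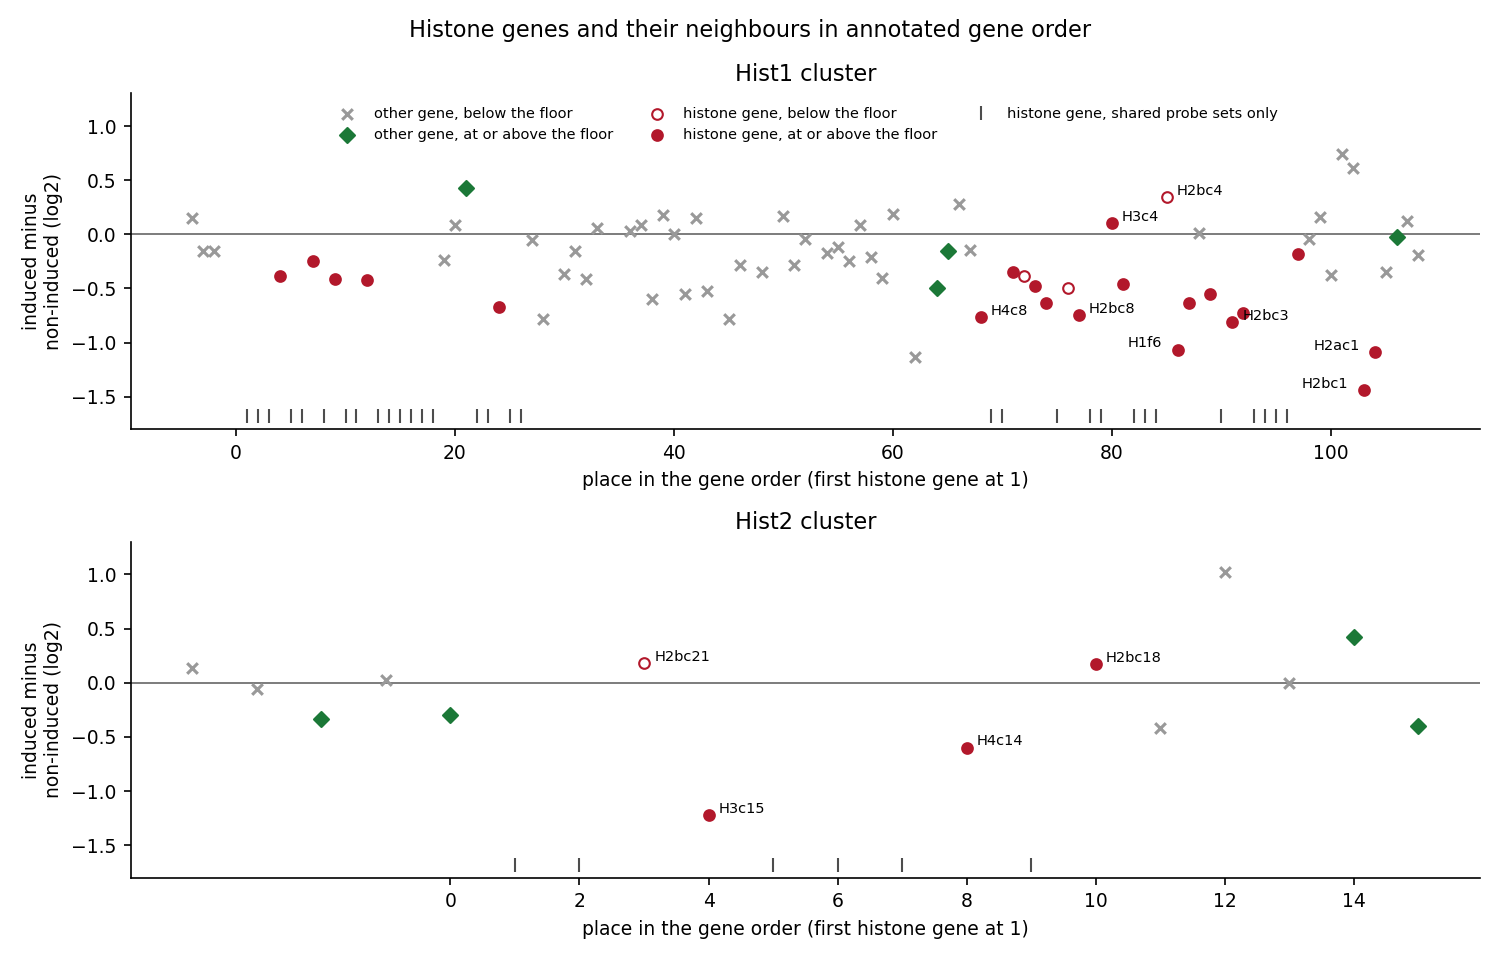
Difference (y axis, induced minus non-induced, log2) of histone genes (red circles) and other genes (crosses and diamonds) in annotated gene order (x axis, place counted from the first histone gene) for Hist1 and Hist2. Open circles and crosses are below the floor in both arrays, and ticks mark histone genes read by shared probe sets only. H2bc1 and H2ac1 are the last histone genes of Hist1, at -1.43 and -1.09.

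The Hist3 and Hist4 genes have platform symbols outside the rule and were not members. H4f16 (Hist4h4) had 11.62 on the induced array, against 12.32 on the non-induced one (-0.70). The Hist3 pseudogene H2bu1-ps had 8.52 on the induced array, against 9.87 on the non-induced one (-1.35). H2aw had 10.29 on the induced array, against 10.56 on the non-induced one (-0.27), and H2bu2 had 7.43 on the induced array, against 7.63 on the non-induced one (-0.20). These 4 were thus all lower, as most members were. Another probe set, which names H2aw and Trim17, was at 0.13.

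Replication-independent variants were set beside the cluster genes. Of 12 measured by probe sets of 1 symbol, 9 were above 0, with a median of 0.21, or 0.34 after the repeated quantile normalization and 0.13 after centring. They include H1f7, H1f8 and H1f10, which were also members. H2ax, the variant phosphorylated at DNA breaks, had 9.78 on the induced array, against 9.49 on the non-induced one (0.28). Macroh2a2 was at 0.45 and H2az2 at 0.39, while Macroh2a1 was at -0.36 and H2az1 at -0.07. H3f3a, a gene for the H3.3 variant, entered this count through a probe set below the floor (-0.17). The probe sets that H3f3a shares with Gm12657 lay between -0.12 and 0.00, and those that H3f3b, the other H3.3 gene, shares with Gm6485 were at 0.14 and 0.21.

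Genes that process histone mRNA differed less. Of 16 measured 11 were below 0, with a median of -0.14, or -0.09 after lowess, -0.06 after a repeated quantile normalization and -0.23 after centring of each array, and none was past log2 0.58. Slbp, which encodes the stem-loop binding protein, had 8.88 on the induced array, against 8.96 on the non-induced one (-0.08). Lsm10 (0.27) and Lsm11 (-0.14) encode proteins of the U7 particle that cleaves the pre-mRNA. Casp8ap2 (FLASH), which is needed for that cleavage, had 7.34 on the induced array, against 7.77 on the non-induced one (-0.43). Of 10 factors of ordinary polyadenylation 8 were below 0, with a median of -0.19, or -0.09 after lowess and -0.07 after the repeated quantile normalization. Pcf11 and Cstf1 were at -0.58 each, and Cstf3 and Clp1 at -0.48 and -0.45.

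Of 10 regulators of histone gene transcription 8 were below 0, with a median of -0.22, or -0.11 after lowess and -0.08 after the repeated quantile normalization. Npat had 7.62 on the induced array, against 7.94 on the non-induced one (-0.32). Gon4l had 6.89 on the induced array, against 7.60 on the non-induced one (-0.70) and was the only one of these past log2 0.58. Of 13 histone chaperones and enzymes that acetylate new histones 12 were below 0, with a median of -0.13, or -0.04 after the repeated quantile normalization and -0.21 after centring of each array. Asf1a, a chaperone of H3 and H4, had 7.83 on the induced array, against 8.45 on the non-induced one (-0.62), and Nap1l1, Nasp and Hat1 were at -0.39, -0.28 and -0.21.

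S phase genes were set beside the histone genes because both are used when DNA is copied. Of 29 measured 20 were below 0, with a median of -0.07, against 0.01 for all probe sets and, for the list, 0.06 after a repeated quantile normalization, -0.01 after lowess and -0.16 after centring. The only one past log2 1 was Ccne2, which encodes cyclin E2, with 8.30 on the induced array, against 9.73 on the non-induced one (-1.43). Ccne1, its paralog, was at -0.19. Rfc4, a clamp loader subunit, was at -0.71, Gins1, a subunit of the replicative helicase, at -0.65 and Tyms (thymidylate synthase) at -0.64. Pcna, the sliding clamp, was at -0.28 and Rrm2, a ribonucleotide reductase subunit, at 0.49. Of 19 genes of G2 and mitosis 12 were below 0, with a median of -0.06, which was 0.03 after lowess, 0.07 after the repeated quantile normalization and -0.14 after centring. Nusap1, Ttk, Kif11 and Cdk1 were at -0.65, -0.63, -0.49 and -0.40. The part of cell cycle position in the histone values was not tested.

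**Figure D5:**
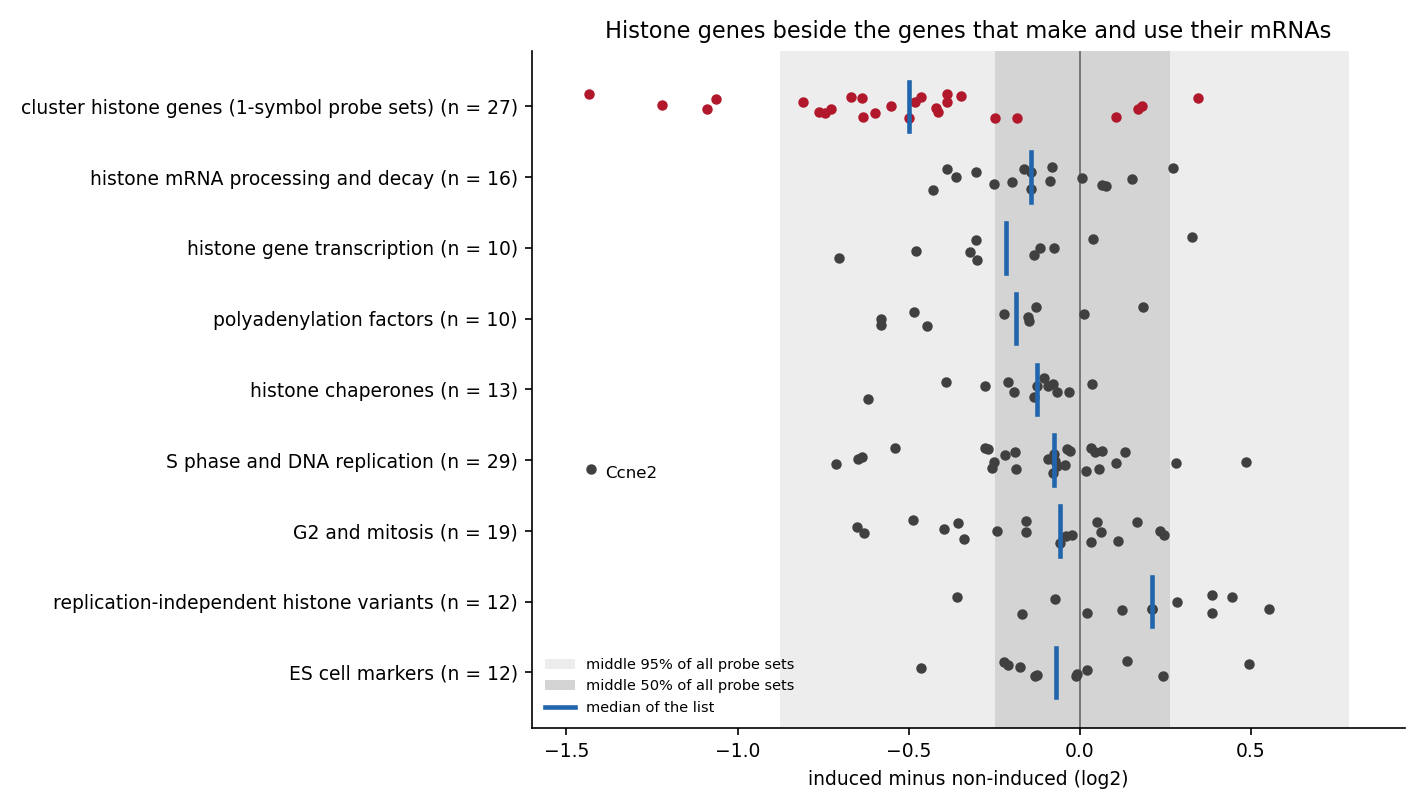
Differences (x axis, induced minus non-induced, log2) of the 27 cluster histone probe sets with 1 symbol (red) and of the genes in 8 lists (dark dots), with list medians as blue bars and the middle 50% and 95% of all probe sets as bands. The median of the cluster histone genes is -0.50, and the medians of the other lists lie between -0.22 and 0.21.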

How the data were processed

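RNA (300 ng per array) of 1 induced and 1 non-induced sample of CTCFL-V5-GFP ES cells was hybridized to Affymetrix Mouse Gene 1.0 ST arrays, with groups taken from the sample labels. The labels speak of biotinylated cRNA and the methods of end-labelled single-stranded DNA, and neither says how the RNA was primed, which bears on mRNAs without a poly(A) tail. The deposited log2 values were made by the authors with RMA in R/Bioconductor, which corrects background, quantile normalizes and summarizes probes. It compresses differences of dim genes. The version of the software and the annotation and build behind the probe sets are not stated in those sources. Values ran from 1.36 to 14.5. Arrays give no counting error, and precision is limited by there being 1 array per group.

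Gene symbols came with the platform annotation (21789 with 1 symbol, 1621 with several). Older symbols, gene order and promoters came from RefSeq for GRCm38.p6. The non-induced log2 value was subtracted from the induced one. A size of log2 1, or 0.58, and a floor at the median of all values (6.36) replaced a test. Named genes were all members past log2 1 with the floor, the 3 lowest and 3 highest of each type, all H1 members, fixed genes of the processing and transcription lists with those past log2 0.58, and up to 4 of each other list. Genes added after their values were seen were the other members with 1 symbol, the Hist3 and Hist4 genes outside the rule and neighbours at the floor. Pcna, Ccne1, H2az1, H3f3a, H3f3b, Hils1, Cenpa, Hat1, H2bl1, H2al2a, H2al3, H2ap and H2ab1 were added in the same way. So were the shared H2al sets and Vim, Lum and Dcn. The members and lists were chosen with earlier results of these data known. Genes of the lists without a probe set of 1 symbol (Pou2f1, Ccnb1, Ssrp1, H3f3b, H1f0 and Hspa1b, for example) entered no list count.

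Alternatives were centring each array on its median, removing the trend on signal by lowess (fraction 0.3), a repeated quantile normalization, a constant of 32 added before log2, other sizes and floors, members with 1 symbol and the mean. The steps were tested on simulated data with noise much narrower than the spread of these arrays and wide planted changes in bright probe sets. That checks the code only and says nothing of the precision of the values here. Python 3.11.15 was used with statsmodels 0.14.6, scipy 1.17.1, pandas 2.3.3, numpy 2.4.6 and matplotlib 3.10.9.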

Additional observations from a re-analysis of the deposited data

How the results depend on the processing

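No paired analysis was possible because there was 1 array per condition. The median of the histone probe sets stayed between -0.39 and -0.27 under the scalings and moved to -0.47 when only members with 1 symbol were used. With the constant of 32, 2 members in place of 4 were lower by log2 1 (H1f6 at -0.99 and H3c15 at -0.82), and with a size of log2 0.58 there were 12. H1f6 was also at -0.96 after lowess and -0.94 after the repeated quantile normalization. None of the scalings or floors gave a member higher by log2 1. Among all probe sets past log2 1 with the floor, those higher made up 18.9%, which became 8.78% after centring, 7.23% with the constant, 22.5% after lowess and 26.3% after the repeated quantile normalization. Over members at or above the floor the Hist2 median was -0.60. After the repeated quantile normalization those of the ES cell markers, G2 and mitosis and S phase became 0.0109, 0.0736 and 0.0619, and after lowess those of the ES cell markers and G2 and mitosis became 0.0056 and 0.0303. The cause was not tested.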

Other observations

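Histone genes of the germ line that lie outside the clusters were measured as well. Hils1, a spermatid linker histone, had 6.12 on the induced array, against 6.10 on the non-induced one, both below the floor. H2bl1 had 4.86 on the induced array, against 4.72 on the non-induced one, also below it. H2al2a, a spermatid H2A variant, had 6.51 on the induced array, against 5.87 on the non-induced one, a difference of 0.64. Only its induced value was above the floor. H2al3 (-0.33) and H2ap (-0.23) were lower and H2ab1 (0.24) was higher, all below the floor in both arrays. The shared sets of the H2al1 genes lay between -0.13 and 0.24, and those of H2al2b and H2al2c were at 0.19. These too were below the floor in both arrays. The testis histones of the Hist1 cluster, TH2A, TH2B and H1t, had differences of -1.09, -1.43 and -1.06. Cenpa, the H3 variant of centromeres, had 9.90 on the induced array, against 9.69 on the non-induced one, a difference of 0.21. These are values of 1 array each, with no replicate.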
